A study of Mus musculus with 5 samples.

Results

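The nuclei described here carry RNA of genes switched on as muscle progenitors commit to differentiation, before a myoblast fuses into a fiber. They were chosen by measured RNA in 4 libraries of mouse hindlimb skeletal muscle. A nucleus was taken when it held more than 400 and fewer than 25000 unique RNA molecules (UMIs) assigned to genes, less than 1% of them from Ttn, none from Pax7, and at least 1 UMI of at least 2 of the 4 genes Myog, Mymk, Myod1 and Dll1. This rule found 246 nuclei of 16094 with that number of UMIs in the 4 libraries. They are called committed nuclei below. Whether the cell around a nucleus had fused was not measured, so the name rests on RNA alone.

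Gene RNA and open chromatin were measured in the same nuclei (10x multiome) in 5 libraries, each from 1 pool of hindlimbs with skin and bone removed. The KO E18.5 library came from 26 pooled hindlimbs of Cacna1s-/- fetuses on the C57bl6n strain at embryonic day E18.5, in which an inserted cassette replaced the coding region of Cacna1s, the pore subunit of the muscle calcium channel that senses membrane voltage. The WT C57bl6n libraries came from 56 hindlimbs at E14.5, 14 at E18.5, 8 at 5 days after birth (P5) and 4 in the adult. The deletion is present in every cell of the KO fetus and the controls carry no shared allele or treatment. Nuclei stained for PCM1, a myonuclear protein, and nuclei without it were sorted and mixed in equal volumes, so shares of all nuclei below are partly set by the sort. With 1 library per group there is no replicate error, no p-value is given, and each interval below is an exact 95% interval for counting error only. In these comparisons a gene was called higher or lower when its level differed at least 2-fold with at least 20 UMIs in 1 of both groups. Levels are UMIs per 1000000 gene UMIs (CPM) summed over the nuclei of a group, and are compared between groups, not between genes. A lower summed level in a set of nuclei can come from fewer expressing nuclei or from less RNA in each, and the sums alone do not tell these apart.

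Skeletal muscle forms from Pax7 positive progenitors, which divide, and whose daughters switch on Myod1 and then Myog, DNA-binding factors that drive the muscle program. Committed cells leave the cell cycle, present the Notch ligand Dll1 to neighboring progenitors, whose Notch receptors keep them undifferentiated, and make the fusion proteins Mymk (myomaker) and Mymx (myomerger). After fusion the nuclei transcribe the genes of the sarcomere, Ttn (titin) among them, and those of the neuromuscular synapse. Committed nuclei were therefore set against the 867 Pax7 positive nuclei with Ttn under 1% and the 6182 nuclei with Ttn at 1% or more (Ttn-high) of the same libraries.

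Committed nuclei numbered 107 of 3229 in KO E18.5, 51 of 4829 in WT E14.5, 76 of 4283 in WT E18.5 and 12 of 3753 in WT P5. Their share was 3.31% (2.72 to 3.99) in KO E18.5, against 1.77% (1.4 to 2.22) in WT E18.5. Over the WT ages it was 1.06% (0.787 to 1.39) at E14.5, 1.77% at E18.5 and 0.320% (0.165 to 0.558) at P5. In the WT adult library, 0 of 5115 nuclei met the rule, which allows a share of up to 0.0587% by a floor of 3 counts and 0.0721% as the upper end of the exact 95% interval. The intervals of KO E18.5 and WT E18.5 did not overlap, and neither did those of the 3 WT ages. Over nuclei with fewer than 2 UMIs of other cell types' markers, a check described below, the share was 11.3% (8.37 to 14.8) in KO E18.5 and 7.14% (4.8 to 10.2) in WT E18.5, with intervals that overlapped, 2.40% (1.59 to 3.48) in WT E14.5 and 3.76% (1.53 to 7.6) in WT P5, which there was not the lowest. Per 100 Pax7 positive nuclei there were 28.3 committed nuclei in KO E18.5, 23.3 in WT E14.5, 42.0 in WT E18.5 and 13.5 in WT P5, so relative to progenitors the KO share lay below the WT share of its age.

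Because a nucleus must show at least 2 low-abundance genes, depth bears on these shares. Thinned to 3000 UMIs a nucleus, the rule kept 39 of 3076 nuclei in KO E18.5 (1.27%), 30 of 3633 in WT E14.5 (0.826%), 38 of 3938 in WT E18.5 (0.965%) and 6 of 3047 in WT P5 (0.197%). The order of the libraries was the same at this equal depth, but the intervals of KO E18.5 (0.903 to 1.73) and WT E18.5 (0.684 to 1.32) overlapped, as did those of WT E18.5 and WT E14.5 (0.558 to 1.18), and only WT P5 (0.0723 to 0.428) stayed apart. Shallower nuclei left out numbered 153 in KO E18.5, 1196 in WT E14.5, 345 in WT E18.5 and 706 in WT P5. Thinned to 1000 UMIs, where 10, 3, 3 and 4 nuclei met the rule, the shares were 0.312%, 0.0639%, 0.0708% and 0.112%, and WT P5 no longer stood lowest. The committed nuclei had a median of 6864 UMIs in KO E18.5, 5504 in WT E14.5, 5714 in WT E18.5 and 4108 in WT P5.

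**Figure D1:**
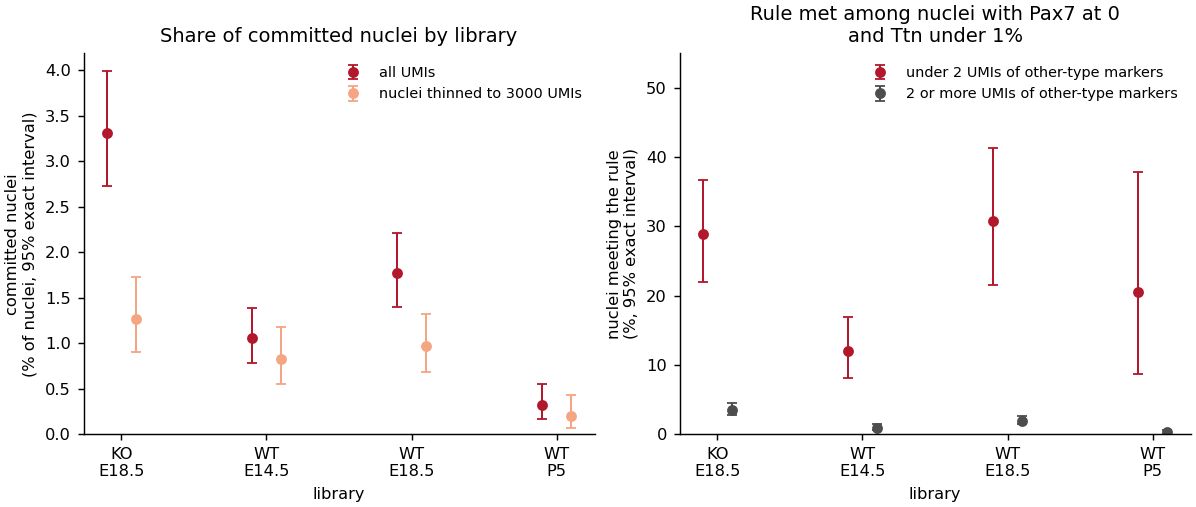
Committed nuclei as a percent of all nuclei with more than 400 and fewer than 25000 UMIs in each library, with exact 95% intervals for counting error. KO E18.5 stands highest at 3.31%, followed by WT E18.5 at 1.77%, WT E14.5 at 1.06% and WT P5 at 0.320%, and no WT adult nucleus met the rule.

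The values of the rule's own genes are a description, since they chose the nuclei. Myog, which is needed for myoblasts to differentiate (chr1:134289989-134292548 in the GRCm38 gene annotation), was at 148 CPM in KO E18.5, 131 in WT E14.5, 174 in WT E18.5 and 192 in WT P5 committed nuclei. Mymk, the membrane protein required on fusing myoblasts (chr2:27061636-27072179), was at 126, 134, 128 and 154 CPM in the same order of libraries. Myod1, a factor that starts the muscle program (chr7:46376474-46379099), was at 49.5, 98.8, 70.1 and 115 CPM, and Dll1 (chr17:15367354-15376872) at 57.8, 60.5, 78.7 and 211 CPM. Of the 246 nuclei, 179 showed 2 of the 4 genes, 59 showed 3 and 8 showed all 4. The most frequent combination was Myog with Mymk alone, in 67 nuclei, followed by Myog with Dll1 in 36, and 13 nuclei held Myod1 and Dll1 without Myog or Mymk.

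The limit on Ttn fell within a continuum. The highest Ttn share inside was 0.982% in KO E18.5, 0.991% in WT E14.5, 0.977% in WT E18.5 and 0.440% in WT P5. The lowest share among nuclei that met the rest of the rule but lay outside was 1.01%, 1.00%, 1.00% and 1.41%. In all, 1035 nuclei showed at least 2 of the 4 genes, of which 745 were Ttn-high and 44 had Ttn under 1% but a Pax7 UMI. The committed nuclei are thus the part with Ttn under 1% and no Pax7 UMI of a larger population with these transcripts.

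The label was checked against markers of 10 other cell types. At least 2 UMIs of such markers were present in 57% of committed nuclei in KO E18.5, 47.1% in WT E14.5, 63.2% in WT E18.5 and 41.7% in WT P5, 138 of 246 in all. The corresponding shares were 75.1%, 59.8%, 76.8% and 84.3% of Pax7 positive nuclei and 84.3%, 56.7%, 83.7% and 92.1% of Ttn-high nuclei. Marked committed nuclei held more UMIs, with medians of 11041, 7621, 7902 and 5911, against 5702, 4265, 4751 and 3584 in the unmarked ones. Summed mesenchymal markers stood at 1322, 797, 1866 and 1056 CPM in committed nuclei, close to Pax7 positive nuclei except in WT P5, where Pax7 positive nuclei had 3486 CPM.

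Free RNA or a second nucleus in a droplet can give a nucleus of another type 2 of the 4 genes. Of nuclei with mesenchymal markers, 34 of 1325 in KO E18.5 (2.57%), 17 of 2101 in WT E14.5 (0.809%), 26 of 2166 in WT E18.5 (1.2%) and 4 of 1683 in WT P5 (0.238%) met the rule, at median depths of 7285, 3712, 5626.5 and 4545 UMIs. The base was limited to nuclei with Pax7 at 0 and Ttn under 1%. On the same base the share ran from 0 to 3.09% of endothelial-marked nuclei and from 0 to 5.05% of macrophage-marked nuclei over the libraries. Among nuclei without Pax7, with Ttn under 1% and with fewer than 2 other-type UMIs, the rule was met by 46 of 159 (28.9%), 27 of 225 (12%), 28 of 91 (30.8%) and 7 of 34 (20.6%). The unmarked base leaves out most nuclei of other cell types, so the higher share there was set in part by the choice of base. How many marked members are other cell types with free RNA was not tested. The results below are given over all 246 nuclei, and counts of genes called also over the 108 unmarked ones, 46 in KO E18.5, 27 in WT E14.5, 28 in WT E18.5 and 7 in WT P5, each set against unmarked Pax7 positive or Ttn-high nuclei. The Scrublet caller marked 66 of the 246 as doublets. It marked no nucleus of WT P5 and so did not work there.

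Among the gene lists given below, committed nuclei differed from Pax7 positive nuclei most in division genes, which were lower. Genes of the sarcomere and the synapse were higher. Most genes called in either direction lay outside these lists. In all 4 libraries 89 of 4711 genes were called higher (1.89%) and 142 lower (3.01%). WT P5 held only 12 committed nuclei, so the counts were repeated without it, a choice made after seeing the data. In KO E18.5, WT E14.5 and WT E18.5, 205 of 7099 genes were higher (2.89%) and 395 lower (5.56%). Over unmarked nuclei of these 3 libraries, 147 of 2568 genes were higher (5.72%) and 285 lower (11.1%). The lists below use the 3 libraries, with the median log2 difference of all tested genes at -0.09.

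Genes of mitosis were lower without exception. All 20 of 20 tested passed the limit, with a median log2 difference of -2.26, and over unmarked nuclei 15 of 17 did. With WT P5 included the count was 5 of 18. Their summed level was 1198 CPM in KO E18.5, 1192 in WT E14.5, 460 in WT E18.5 and 1555 in WT P5 committed nuclei, against 5182, 4607, 4357 and 2741 CPM in Pax7 positive nuclei. Top2a, the topoisomerase that untangles chromosomes, was at 141, 159, 65.0 and 173 CPM in committed nuclei, against 626, 503, 653 and 332 CPM in Pax7 positive nuclei. Mki67, a coat protein of mitotic chromosomes, was at 97.0, 60.5, 25.7 and 115 CPM, against 360, 262, 250 and 173 CPM. The remaining signal sat in few nuclei. At least 10 UMIs of these genes were found in 16 of 107, 8 of 51, 6 of 76 and 2 of 12 committed nuclei, and in WT P5 1 nucleus carried 69.1% of them.

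Genes of DNA replication followed, with 16 of 20 lower, a median of -1.85, and 10 of 10 lower over unmarked nuclei. Summed, they gave 792, 1064, 623 and 979 CPM in committed nuclei, against 2762, 2987, 3084 and 2310 CPM in Pax7 positive nuclei. Pola1, the catalytic subunit of the polymerase that primes replication, was at 219, 290, 156 and 269 CPM, against 825, 839, 820 and 647 CPM, lower in every library. With WT P5 included, 7 of 13 replication genes were lower.

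Of 8 tested genes of cell cycle exit, 2 were higher and 1 lower, with a median of 0.41. Rb1, the retinoblastoma protein that holds E2F factors in check, was at 1632 CPM in KO E18.5, 1240 in WT E14.5, 1443 in WT E18.5 and 2228 in WT P5, against 435, 357, 308 and 264 CPM in Pax7 positive nuclei. It was seen in 104 of 107, 50 of 51, 76 of 76 and 12 of 12 committed nuclei, and the ratio ran between 3.47 and 8.45. Btg1, an antiproliferative gene, was at 129, 82.8, 192 and 173 CPM, against 59.6, 16.5, 59.8 and 65.9 CPM. The lower gene was Rbl1, a relative of Rb1 linked to cycling cells. Over unmarked nuclei Rb1 was higher and Rbl1 lower of 3 tested. Cdkn1c, the p57 inhibitor of cyclin-dependent kinases, was at 742, 478, 657 and 787 CPM, against 413, 306, 323 and 196 CPM, and did not reach 2-fold in KO E18.5 or WT E14.5, where the ratios were 1.79 (1.64 to 1.96) and 1.56 (1.28 to 1.90).

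**Figure D2:**
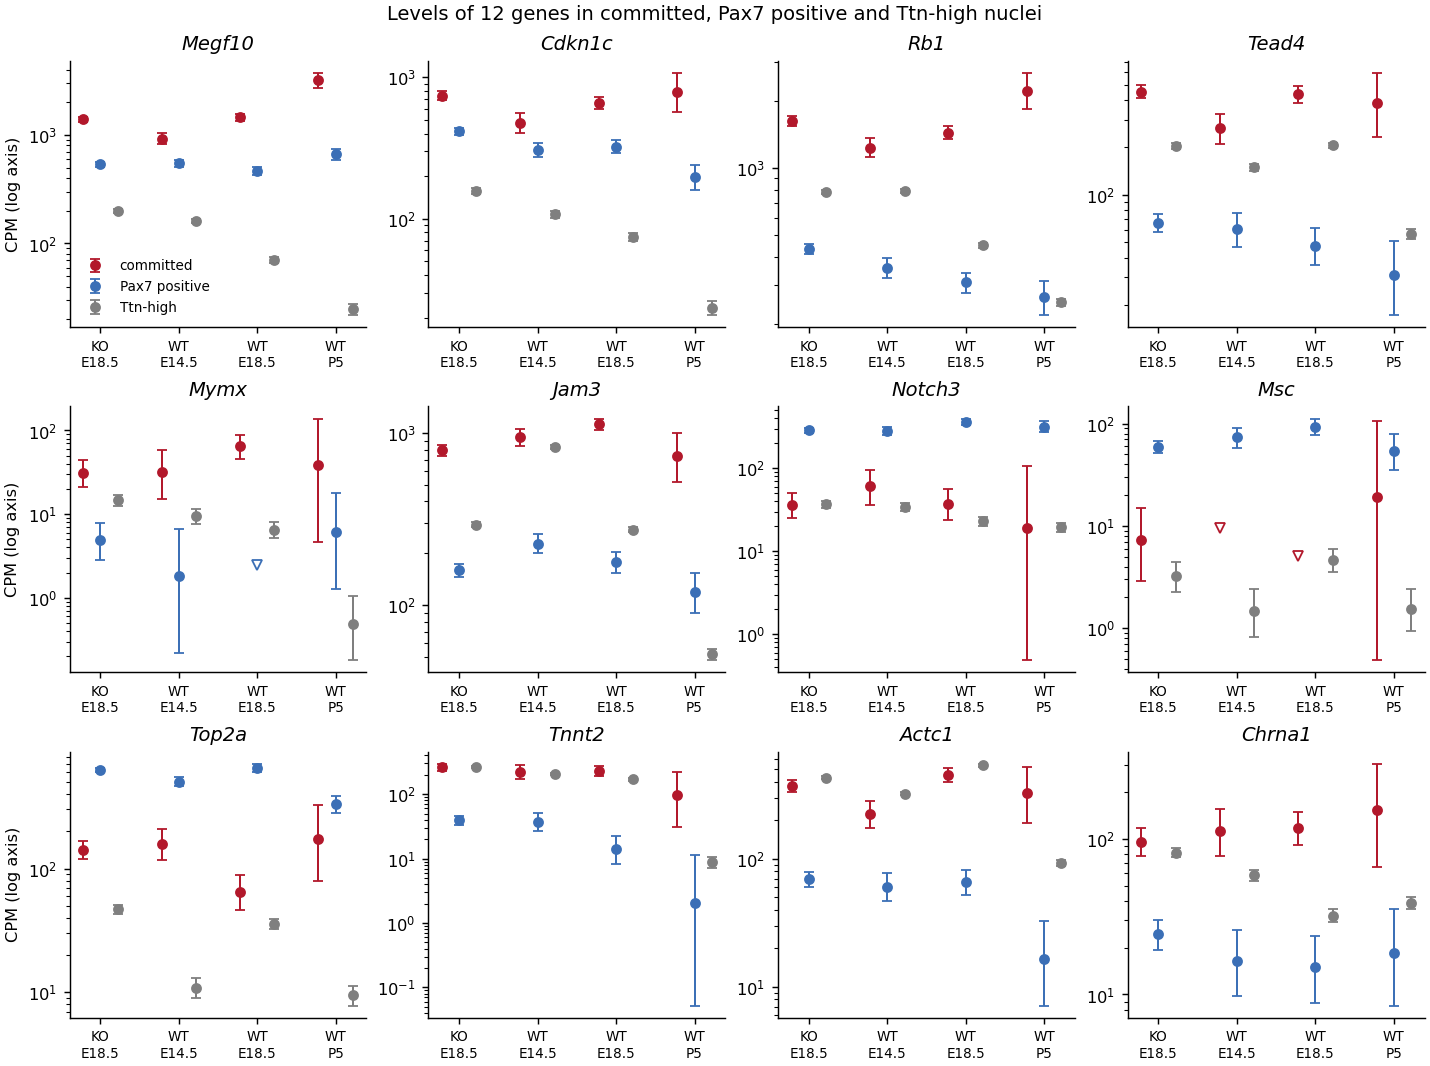
Level of selected genes in CPM on a log axis, for committed, Pax7 positive and Ttn-high nuclei of each library, with exact 95% Poisson intervals for counting error. Rb1 at 1240 to 2228 CPM in committed nuclei lies above both other sets in every library, while Top2a at 65.0 to 173 CPM lies below Pax7 positive nuclei.

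Genes of the early sarcomere were higher in committed nuclei for 16 of 27 tested, with a median of 1.74. Over unmarked nuclei 11 of 16 were higher and Mybpc1 was lower, and with WT P5 included 3 of 14 were higher, Neb, Myom1 and Ryr1. Actc1, the cardiac actin that fetal skeletal muscle also uses, was at 370 CPM in KO E18.5, 223 in WT E14.5, 450 in WT E18.5 and 326 in WT P5 committed nuclei, against 68.9, 60.5, 65.7 and 16.5 CPM in Pax7 positive nuclei. Tnnt2, the cardiac troponin T made in embryonic muscle, was at 260, 223, 229 and 96.0 CPM, against 39.4, 37.6, 14.1 and 2.06 CPM. Myh3, the embryonic myosin heavy chain, was at 143, 417, 152 and 57.6 CPM, against 43.1, 85.2, 45.7 and 2.06 CPM. Ryr1, the calcium release channel, was seen in 98 of 107, 44 of 51, 72 of 76 and 11 of 12 committed nuclei and was 2.26 to 3.17 times as high as in Pax7 positive nuclei over the 4 libraries. The limit on Ttn is the same in both sets.

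Receptor and adaptor genes of the neuromuscular synapse were higher for 7 of 11 tested, with a median of 1.27. They were Chrna1, Chrnb1 and Chrng, which encode subunits of the fetal acetylcholine receptor, Musk and Dok7, the receptor kinase that clusters it and its adaptor, the collagen Col25a1, and Erbb3, a neuregulin receptor. Over unmarked nuclei, whose counts are lower, 1 of 4 was called, Chrnb1. Chrna1 (chr2:73563215-73580338) was at 96.0 CPM in KO E18.5, 112 in WT E14.5, 118 in WT E18.5 and 154 in WT P5 committed nuclei, against between 15.0 (WT E18.5) and 24.3 CPM (KO E18.5) in Pax7 positive nuclei, a ratio of 3.95 to 8.29. Chrng was at 70.2, 102, 120 and 38.4 CPM, against 24.0, 9.16, 19.1 and 8.24 CPM. Dok7 was at 78.4, 44.6, 92.3 and 76.8 CPM, against 16.8, 18.3, 13.3 and 12.4 CPM. In Ttn-high nuclei Chrna1 stood at 81.5, 58.4, 32.0 and 38.7 CPM, so in all 4 libraries committed nuclei held at least as high a level of it as fiber nuclei, with the KO interval of the ratio reaching below 1 (1.18, 0.941 to 1.46). The list as a whole did not follow Chrna1. Against Ttn-high nuclei 0 of 14 synaptic genes were higher in the 3 libraries and Colq and Ache were lower, with a median of -0.34, and over unmarked nuclei 0 of 12 were higher and Rapsn, Colq and Col25a1 lower.

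The promoters of 4 of these higher genes and of Notch3, which was lower, are shown because the E-box CAGCTG, the 6-base sequence preferred by Myod1 and Myog, was counted in all promoters. Each runs from 250 bases before to 50 bases after a RefSeq start (GRCm38.p6), 5′ to 3′ on the gene's strand, with CAGCTG in capitals. The Chrna1 promoter is chr2:73580289-73580588 on the minus strand with 2 matches, Chrng chr1:87205561-87205860 on the plus strand with 2, the first Tnnt2 promoter chr1:135836084-135836383 on the plus strand with 2, Musk chr4:58285712-58286011 on the plus strand with 1, and Notch3 chr17:32166841-32167140 on the minus strand with 0.
Chrna1: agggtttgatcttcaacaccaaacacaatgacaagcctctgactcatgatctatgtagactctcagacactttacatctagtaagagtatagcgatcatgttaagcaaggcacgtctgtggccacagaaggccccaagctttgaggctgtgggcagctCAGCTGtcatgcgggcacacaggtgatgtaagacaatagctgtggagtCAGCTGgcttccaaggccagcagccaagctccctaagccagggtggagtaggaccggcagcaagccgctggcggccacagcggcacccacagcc
Chrng: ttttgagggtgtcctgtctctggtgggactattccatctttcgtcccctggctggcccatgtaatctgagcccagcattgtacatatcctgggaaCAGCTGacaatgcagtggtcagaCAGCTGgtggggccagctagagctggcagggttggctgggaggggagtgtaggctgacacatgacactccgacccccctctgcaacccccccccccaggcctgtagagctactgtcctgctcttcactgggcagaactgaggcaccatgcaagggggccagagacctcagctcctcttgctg
Tnnt2: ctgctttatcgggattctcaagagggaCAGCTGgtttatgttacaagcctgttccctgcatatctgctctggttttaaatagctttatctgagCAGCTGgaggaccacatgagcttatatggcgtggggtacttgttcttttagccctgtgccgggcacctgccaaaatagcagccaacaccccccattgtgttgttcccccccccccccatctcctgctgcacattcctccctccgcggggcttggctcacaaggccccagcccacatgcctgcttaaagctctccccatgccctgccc
Musk: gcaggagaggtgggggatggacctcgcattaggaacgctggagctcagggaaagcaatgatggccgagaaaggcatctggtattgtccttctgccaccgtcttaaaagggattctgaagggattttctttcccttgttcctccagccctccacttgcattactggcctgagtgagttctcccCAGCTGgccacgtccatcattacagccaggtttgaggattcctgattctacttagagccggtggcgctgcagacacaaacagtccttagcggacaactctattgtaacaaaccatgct
Notch3: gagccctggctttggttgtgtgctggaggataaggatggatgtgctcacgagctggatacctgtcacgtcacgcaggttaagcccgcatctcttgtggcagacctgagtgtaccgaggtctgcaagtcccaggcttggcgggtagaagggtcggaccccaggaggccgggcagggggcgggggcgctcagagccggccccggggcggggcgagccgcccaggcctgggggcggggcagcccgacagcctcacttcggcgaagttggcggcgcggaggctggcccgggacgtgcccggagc
The motif reads the same on both strands. CAGCTG stood in the promoter of 54 of 157 genes higher than in Pax7 positive nuclei (34.4%) and of 56 of 308 lower genes (18.2%). It stood in 1000 of the 5631 tested genes with a promoter sequence (17.8%) and in 5355 of all 32851 promoters of this length (16.3%). For each motif a gene counted when any of its promoters held a match, while the share of all promoters counts each promoter on its own. The gene shares are therefore to be compared with that of the tested genes. CAGGTG, the other E-box counted, on either strand, was found in 29.9% of higher, 16.9% of lower and 18.1% of tested genes, and in 20.2% of all promoters. CATTCC, the sequence bound by Tead factors, was found in 19.1%, 16.2%, 13.6% and 14.7% in the same order. Against Ttn-high nuclei the order was the other one, with CAGCTG in 17.8% of the genes higher in committed nuclei, 29.7% of the lower ones and 18.3% of those tested. A match is a run of letters and was not tested for binding. RefSeq promoter sequences for Mymk, Mymx, Myod1, Cdkn1c and Msc were not used here.

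Among myogenic regulators, 5 of 20 were higher than in Pax7 positive nuclei, Mef2a, Mef2c, Klf5, Tead4 and Sox6, and Eya1 was lower. Over unmarked nuclei these calls held for Mef2a, Mef2c, Tead4, Sox6 and Eya1 of 11 tested, and Klf5 was not called. Tead4, a partner of the Hippo pathway that acts on muscle genes, was at 453 CPM in KO E18.5, 264 in WT E14.5, 438 in WT E18.5 and 384 in WT P5, against 66.3, 60.5, 47.4 and 30.9 CPM in Pax7 positive nuclei. Mef2a, a DNA-binding partner of Myod1 and Myog, was at 1409, 1714, 1361 and 1306 CPM, against 492, 608, 413 and 404 CPM. Sox6, which represses slow fiber genes, was at 1233, 1271, 1372 and 1978 CPM, against 496, 502, 418 and 560 CPM. Eya1, a coactivator of muscle genes, was at 87.7, 54.2, 32.5 and 0 CPM, against 464, 433, 264 and 305 CPM, and lay below in every library.

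Of the 18 tested Notch pathway genes, 3 were lower, with a median of -0.16 for the list. Notch3, a receptor of satellite cells, was at 36.1 CPM in KO E18.5, 60.5 in WT E14.5, 37.6 in WT E18.5 and 19.2 in WT P5 committed nuclei, against 287, 280, 362 and 319 CPM in Pax7 positive nuclei, a ratio of 0.0602 to 0.216. Over unmarked committed nuclei Notch3 was at 7.47, 41.6, 0 and 0 CPM. Heyl, a Notch target, and Lfng, which modifies the receptor, were the other two. Rbpj, the DNA-binding partner of all Notch receptors, was not lower, at 757, 602, 729 and 845 CPM, against 524, 374, 343 and 356 CPM. The ligand Dll1, a rule gene that a committed nucleus need not show, had a UMI in 50 of 107, 18 of 51, 35 of 76 and 7 of 12 of them. Over unmarked nuclei Notch3 and Maml2, a coactivator of Notch, were lower of 9.

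Genes of progenitors were lower for 4 of 9, with a median of -1.41. Msc (musculin, a repressor of myogenic factors) was at 7.22, 0, 0 and 19.2 CPM, against 59.0, 73.3, 93.1 and 53.5 CPM, and Chodl (chondrolectin) at 17.5, 38.2, 30.8 and 38.4 CPM, against 320, 150, 251 and 251 CPM. Dmrt2 and Vcam1 were the other genes called, and over unmarked nuclei Msc and Chodl were lower of 5. Megf10, a receptor that satellite cells use to stay proliferative, went the other way. It was at 1400 CPM in KO E18.5, 924 in WT E14.5, 1452 in WT E18.5 and 3188 in WT P5 committed nuclei, against 536, 547, 463 and 661 CPM in Pax7 positive nuclei and 198, 161, 70.6 and 24.7 CPM in Ttn-high nuclei. It did not pass the call over Pax7 positive nuclei because the WT E14.5 ratio was 1.69 (1.46 to 1.95), and it passed over Ttn-high nuclei in every library.

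Genes of cell fusion beyond Mymk were mixed. Of 22 tested over Pax7 positive nuclei, Dysf, Jam3 and Elmo1 were higher and Kirrel and Cdon lower, with a median of 0.11. Over unmarked nuclei Myof, Jam3 and Elmo1 were higher and Cdh2, Kirrel3, Adgrb3 and Cdon lower of 14. Elmo1, which with Dock1 activates Rac in fusing myoblasts, was at 1357, 676, 1544 and 2688 CPM, against 226, 92.5, 195 and 500 CPM in Pax7 positive nuclei and 112, 54.8, 157 and 124 CPM in Ttn-high nuclei. Jam3, an adhesion molecule, was at 792, 946, 1122 and 730 CPM, against 159, 228, 178 and 119 CPM in Pax7 positive nuclei. Mymx (chr17:45600971-45602102) was at 31.0 CPM in KO E18.5, 31.9 in WT E14.5, 65.0 in WT E18.5 and 38.4 in WT P5, from 30, 10, 38 and 2 UMIs, against 4.92, 1.83, 0 and 6.18 CPM in Pax7 positive nuclei. In KO E18.5 the Mymx ratio was 6.29 (3.36 to 12.2), and in WT E18.5 it was at least 26.1-fold higher, against a floor of 3 counts in the Pax7 positive nuclei. WT E14.5, with 10 UMIs of Mymx, was under the 20 needed for a call.

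Outside the lists, the genes highest over Pax7 positive nuclei by their smallest ratio in the 4 libraries were Myo16, Tmem178b, Sel1l3, Dlg2, Kcnk13, Dpp6, Cnr1, Prune2, Frmd4b and Mylk4. Myo16, an unconventional myosin, was at 1530 CPM in KO E18.5, 1096 in WT E14.5, 1520 in WT E18.5 and 1978 in WT P5, against 93.8, 104, 59.8 and 74.1 CPM. Its smallest ratio was 10.6, in WT E14.5, and it was seen in 74 of 107, 36 of 51, 61 of 76 and 6 of 12 committed nuclei. Dpp6, an auxiliary subunit of potassium channels, was at 2057, 1670, 1479 and 7048 CPM, against 339, 234, 111 and 424 CPM, and in WT P5 44.4% of its UMIs came from 1 nucleus. The lowest were Map2, Garem1, Sncaip, Ntn4, Csgalnact1, Cadm2, Frem1, Ttk, Slc7a2 and Dtx4. Map2, a microtubule-binding protein known from neurons, was at 64.0, 86.0, 54.7 and 38.4 CPM, against 466, 467, 622 and 525 CPM.

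**Figure D3:**
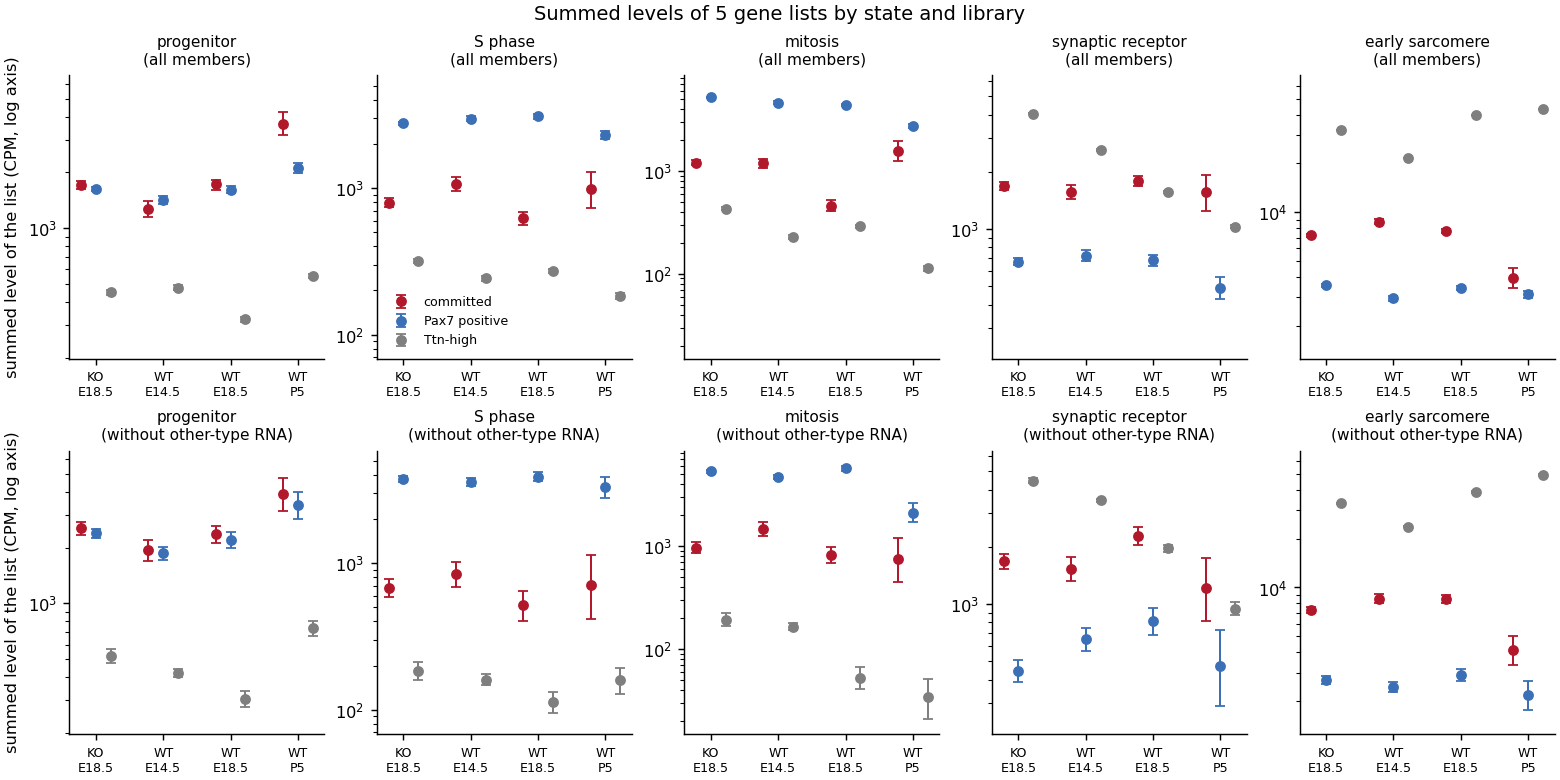
Summed level of gene lists in CPM on a log axis, for committed, Pax7 positive and Ttn-high nuclei of each library, with exact 95% Poisson intervals. Mitosis genes at 460 to 1555 CPM in committed nuclei lie between Pax7 positive nuclei (2741 to 5182 CPM) and Ttn-high nuclei (113 to 429 CPM), and early sarcomere genes at 3975 to 8769 CPM lie far below Ttn-high nuclei (21628 to 43393 CPM).

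Set against Ttn-high nuclei, committed nuclei had 418 of 11663 genes higher (3.58%) and 155 lower (1.33%) in all 4 libraries. This split rests on the scaling. The median log2 difference of all tested genes was 0.47, and with TMM factors 113 genes were higher and 362 lower, with median-of-ratios factors 116 and 352. Without WT P5, 524 of 12234 genes were higher (4.28%) and 355 lower (2.9%) as CPM, with a median of all genes at 0.35. Over unmarked nuclei of these 3 libraries 260 of 5878 genes were higher (4.42%) and 367 lower (6.24%). The values below are CPM ratios and are to be read against that shift.

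Early sarcomere genes were lower than in Ttn-high nuclei for 27 of 40 tested in the 3 libraries, with a median of -1.92, and for 25 of 38 over unmarked nuclei. The limit on Ttn, itself a sarcomere gene, bears on this difference directly. Neb, the thin filament ruler nebulin, was at 1542 CPM in KO E18.5, 1816 in WT E14.5, 1823 in WT E18.5 and 1459 in WT P5, against 5145, 3373, 6833 and 10094 CPM in Ttn-high nuclei. Myl1, a fast myosin light chain, was at 541, 1125, 561 and 57.6 CPM, against 2717, 2534, 3749 and 4656 CPM. Actc1 and Tnnt2 departed from this pattern. Actc1 was at 370, 223, 450 and 326 CPM, against 428, 323, 537 and 92.3 CPM, and Tnnt2 at 260, 223, 229 and 96.0 CPM, against 263, 206, 169 and 8.72 CPM, so neither was called lower. In WT P5 both stood well above the Ttn-high level, while Neb and Myl1 stood at 0.0124 to 0.539 times it over the 4 libraries.

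Fusion genes were higher than in Ttn-high nuclei for 6 of 26, Mymx, Cdh2, Cdh4, Dock1, Dock5 and Elmo1, and lower for 3, Dysf, Tmem182 and Ncam1. Over unmarked nuclei Dock1 and Elmo1 were higher of 18. Mymx stood at 14.7, 9.44, 6.48 and 0.489 CPM in Ttn-high nuclei, so the committed ratio was 2.11 (1.38 to 3.13), 3.38 (1.57 to 6.48), 10.0 (6.64 to 14.9) and 78.6 (7.76 to 439), the last from 2 committed UMIs. Tmem182, an inhibitor of fusion in mouse muscle, was at 25.8, 15.9, 10.3 and 19.2 CPM, against 139, 54.9, 110 and 201 CPM. Dysf, dysferlin, which acts in membrane repair, was at 108, 163, 59.9 and 0 CPM, against 561, 735, 511 and 579 CPM.

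Cdkn1c was the clearest cycle exit gene here, at 742, 478, 657 and 787 CPM in committed nuclei, against 158, 107, 73.9 and 23.5 CPM in Ttn-high nuclei. Of 13 such genes tested, Cdkn1c and Btg1 were higher, and over unmarked nuclei Rb1 was as well. Replication genes were higher for 8 of 16 and mitosis genes for 3 of 19. In the Notch list Notch1 and Rbpj were higher of 19. Fgfr4, a receptor for fibroblast growth factors in myoblasts, was at 124, 207, 94.1 and 269 CPM, against 59.9, 35.0, 38.5 and 12.5 CPM in Ttn-high nuclei and 285, 343, 303 and 348 CPM in Pax7 positive nuclei, an intermediate level in all 4 libraries. Mef2c moved the other way across the states, at 1256, 2081, 937 and 269 CPM in committed nuclei, against 437, 418, 331 and 297 CPM in Pax7 positive nuclei and 4096, 5423, 3287 and 4768 CPM in Ttn-high nuclei, and only in WT P5 was it not above Pax7 positive nuclei.

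A small set of genes stood highest in committed nuclei. In the 3 libraries 46 of 7024 genes were higher than in both other sets (0.655%), and over unmarked nuclei 49 of 2413 were (2.03%). Myog and Myod1 are among the 46 by the rule. In all 4 libraries 25 of 4690 genes passed (0.533%), among them Btg1, Cnr1, Dpp6, Elmo1, Frmd4b, Kcnk13, Myo16, Spon1 and Tmem178b. Tmem178b, a membrane protein, was at 1291 CPM in KO E18.5, 1118 in WT E14.5, 1428 in WT E18.5 and 1440 in WT P5, against 158, 130, 97.3 and 169 CPM in Pax7 positive nuclei and 119, 121, 107 and 32.4 CPM in Ttn-high nuclei. Kcnk13, a potassium channel, was at 715, 532, 602 and 845 CPM, against 102, 87.0, 66.5 and 63.8 CPM and 220, 224, 109 and 10.9 CPM. Spg21, first by its ratio over Ttn-high nuclei, was at 400, 322, 436 and 307 CPM, against 31.3, 18.2, 22.3 and 6.92 CPM there. Myo16 in Ttn-high nuclei was at 184, 101, 201 and 39.2 CPM, and its ratio there was 7.55 to 50.5.

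Other genes fell in between. In the 3 libraries 21 of 7024 genes (0.299%) were higher than in Pax7 positive and lower than in Ttn-high nuclei. Among them were Mef2c, Klf5, Dysf, Myh3, Myl1, Myl4, Ldb3, Myom1 and Casq2. Another 53 (0.755%) were lower than in Pax7 positive and higher than in Ttn-high nuclei, among them Pola1, Pole, Clspn, Dtl, Hells and Mcm5. Over unmarked nuclei these numbered 14 (0.580%) and 11 (0.456%) of 2413. Lower than in both were 6 genes (0.0854%) in the 3 libraries and 0 of 4690 in all 4. Over unmarked nuclei 27 of 2413 (1.12%) were lower than in both in the 3 libraries and 5 of 371 (1.35%) in all 4.

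The committed nuclei also differed among themselves. The 13 with Myod1 and Dll1 alone are called early, the 67 with Myog and Mymk alone late and the other 166 mixed, and since the rule's genes make these classes the values are a description. Early nuclei numbered 3 in KO E18.5, 6 in WT E14.5, 2 in WT E18.5 and 2 in WT P5. Late nuclei numbered 35, 16, 15 and 1 in the same order, so each WT P5 value of the late class below is that of 1 nucleus with 5681 UMIs. Synaptic genes summed to 966 CPM in early, 1550 in mixed and 2111 in late nuclei, early sarcomere genes to 5853, 7113 and 8685 CPM, and replication genes to 1571, 821 and 623 CPM. Mitosis genes summed to 1716, 941 and 985 CPM, and within the late class to 1562 CPM in KO E18.5, 405 in WT E14.5, 16.4 in WT E18.5 and 0 in WT P5, against 104, 2211, 74.9 and 4928 CPM within the early class, so the early sum came from 2 libraries and the order turned in KO E18.5. The same holds for replication genes, which in late nuclei stood at 769 CPM in KO E18.5, 477 in WT E14.5, 378 in WT E18.5 and 352 in WT P5, against 208, 3045, 74.9 and 2425 CPM in early nuclei, so late nuclei were the higher ones in KO E18.5 and WT E18.5. Early sarcomere genes were higher in late nuclei of KO E18.5 and WT E14.5, but in WT E18.5 late and early nuclei stood at 8546 and 9518 CPM and in WT P5 at 3521 and 3911 CPM. Synaptic genes were higher in late than in early nuclei of each library, in WT P5 from 1 late and 2 early nuclei. Myh3 stood at 57.7, 138 and 321 CPM in early, mixed and late nuclei, Col25a1 at 0, 367 and 947 CPM, and Ryr3, a second calcium release channel of immature fibers, at 43.3, 148 and 571 CPM. Musk, with 10 UMIs in the early class, was at 144, 389 and 289 CPM, highest in the mixed class.

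The question of the KO library is what loss of Cacna1s changes. Among the lists, calls in committed nuclei at E18.5 were most numerous for mitosis, followed by migration and guidance, where 7 of 25 genes were higher and 2 lower in KO, and 1 and 1 of 7 over unmarked nuclei. Cacna1s was at 0 CPM in KO E18.5 committed nuclei and 22.2 CPM in WT E18.5 ones, and at 0.720 CPM in KO against 188 CPM in WT Ttn-high nuclei, as the labels say. Of 7150 genes tested in committed nuclei, 506 were higher (7.08%) and 271 lower (3.79%) in KO E18.5, with a median of all genes at -0.02. Over unmarked nuclei 231 of 3038 were higher (7.6%) and 93 lower (3.06%). No rule gene was called. Myog was at 148 CPM in KO and 174 in WT, a ratio of 0.846 (0.652 to 1.1), and Mymk at 126 and 128 CPM, a ratio of 0.981 (0.730 to 1.33).

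Mitosis genes were higher in KO for 16 of 19 tested, with a median of 1.42. Mki67 was at 97.0 CPM in KO and 25.7 CPM in WT, seen in 20 of 107 and 7 of 76 nuclei. Over unmarked nuclei 1 of 5 was called, Mki67, at 78.4 and 34.4 CPM, while Top2a was at 168 and 144 CPM. In nuclei with 3 of the 4 rule genes, Top2a was lower in KO than in WT (log2 difference -0.71). The sum of mitosis genes over unmarked nuclei was 963 CPM in KO and 825 CPM in WT, with 57.8% and 45.8% of it in 1 nucleus each. Mitosis genes in Pax7 positive nuclei had 0 of 20 called in either direction between KO and WT.

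Mymx was lower in KO committed nuclei, at 31.0 CPM against 65.0 CPM in WT, from 30 and 38 UMIs, a ratio of 0.476 (0.285 to 0.789). Over unmarked nuclei Mymx was not called, and of 12 tested fusion genes Jam2 and Cdon were lower. The acetylcholine receptor subunit Chrnb1 was at 143 CPM in KO and 294 CPM in WT, seen in 62 of 107 and 65 of 76 nuclei, and the ratio was 0.488 (0.387 to 0.613). Over unmarked nuclei Chrnb1 was at 187 and 454 CPM, and Chrnd at 67.2 and 158 CPM and Lrp4, the co-receptor of Musk, at 41.1 and 165 CPM were called lower as well. Chrnb1 was also lower in KO Pax7 positive nuclei, at 61.3 CPM against 135 CPM in WT. In Ttn-high nuclei of this pair of libraries Chrna1, Musk and Col25a1 were higher in KO and Ache lower. The fast myosin light chain Mylpf was at 74.3 CPM in KO and 154 CPM in WT committed nuclei, and Tmod1, which caps thin filaments, at 38.2 and 80.4 CPM. They were the 2 genes called lower of 34 tested early sarcomere genes, of which Mybpc1 and Ryr3 were higher, and over unmarked nuclei Myh3, Acta1 and Actn2 were lower of 21 and neither Mylpf nor Tmod1 was called. Igf2 was at 379 CPM in KO and 229 CPM in WT, under 2-fold, and over unmarked nuclei at 515 and 172 CPM it passed, together with H19 of the same imprinted locus at 235 and 82.5 CPM.

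Several other calls between KO and WT sat in few or marked nuclei. Adgrb3, a fusion receptor, was at 325 CPM in KO and 115 CPM in WT, but at 26.1 and 48.1 CPM over unmarked nuclei. Kirrel3 was at 82.6 and 308 CPM, with 34.4% of the WT UMIs in 1 nucleus, and at 85.9 and 110 CPM over unmarked nuclei. F13a1, a macrophage transcript, was at 2.06 CPM in KO and 156 CPM in WT, in 2 and 6 nuclei, and Mrc1 at 10.3 and 140 CPM, in 2 and 4 nuclei, while both were at 0 in the unmarked nuclei of either library. Gria4, highest by its interval, was at 89.8 and 1.71 CPM, in 11 and 1 nuclei, and at 0 in unmarked nuclei of both. Summed macrophage markers were 49.5 CPM in KO and 434 CPM in WT committed nuclei, and their part in these differences beyond the unmarked values was not tested.

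**Figure D4:**
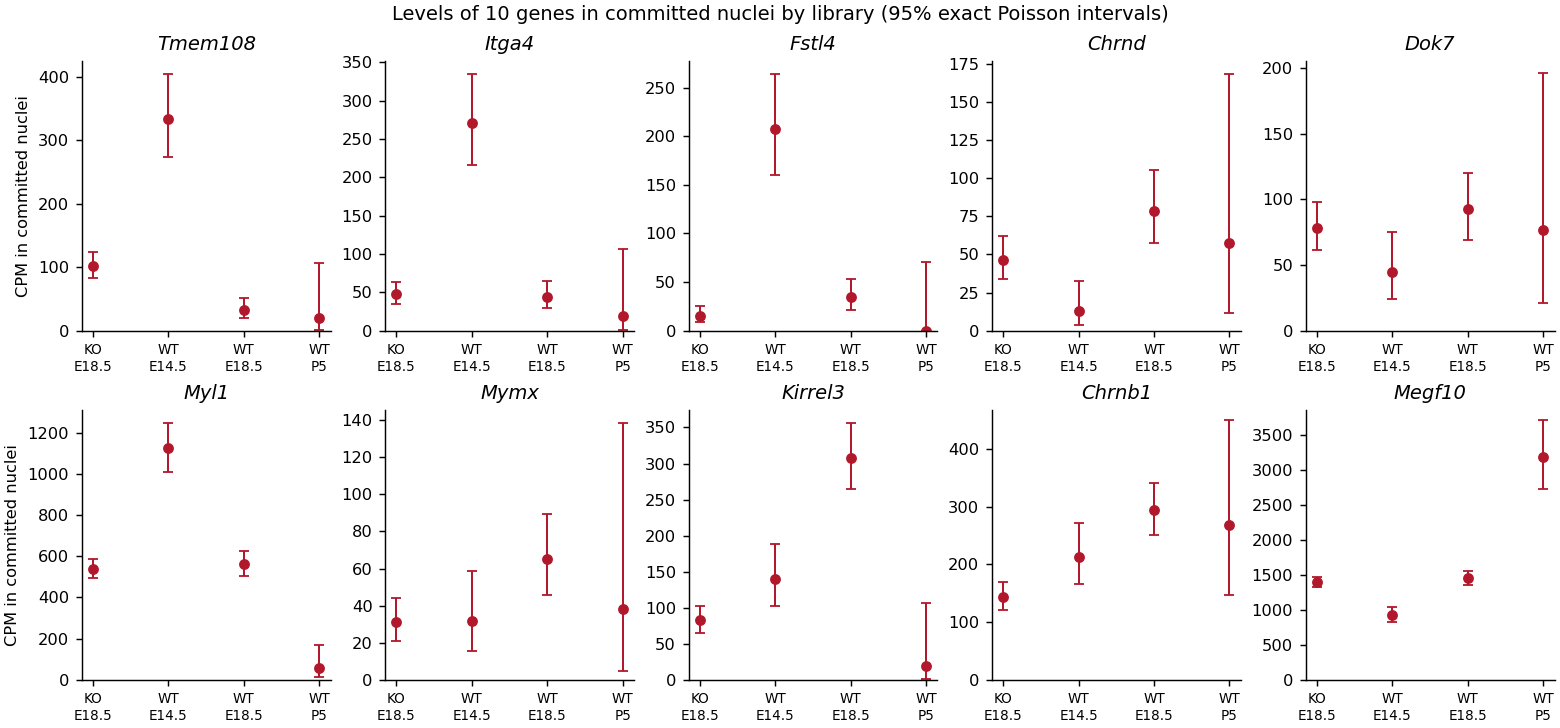
Level of selected genes in committed nuclei of each library in CPM on a linear axis, with exact 95% Poisson intervals for counting error. Chrnb1 lies at 143 CPM in KO E18.5 and 294 CPM in WT E18.5, and Itga4 and Tmem108 lie highest in WT E14.5 at 271 and 335 CPM.

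Between WT E18.5 and WT E14.5 the committed nuclei differed in genes of migration and guidance. Over all members they also differed in genes of division, but none of the few tested over unmarked nuclei was lower. In WT E18.5 611 of 5628 genes were higher (10.9%) and 316 lower (5.61%) than in WT E14.5, with a median of all genes at 0.10, and over unmarked nuclei 224 of 1983 were higher (11.3%) and 176 lower (8.88%). Of 24 migration and guidance genes, 11 were lower and 3 higher, with a median of -0.84, and over unmarked nuclei 7 of 11 were lower and 2 higher. Tmem108 was at 32.5 CPM in WT E18.5 and 335 CPM in WT E14.5, seen in 8 of 76 and 25 of 51 nuclei, and at 0 and 233 CPM over unmarked nuclei. Itga4, an integrin subunit of migrating cells, was at 44.5 CPM in WT E18.5 and 271 CPM in WT E14.5, and Efna5, a repulsive guidance ligand, at 245 and 908 CPM. Higher genes were the laminin receptor subunits Itga6, at 260 CPM in WT E18.5 and 112 CPM in WT E14.5, and Itga7, at 103 and 12.7 CPM, seen in 38 of 76 and 2 of 51 nuclei. Tmem108 and Itga4 differed in the same direction in the other states. Tmem108 was at 97.9 CPM in WT E18.5 and 1004 CPM in WT E14.5 Ttn-high nuclei and at 11.6 and 93.5 CPM in Pax7 positive nuclei, and Itga4 at 39.1 and 409 CPM and at 22.4 and 167 CPM. Itga6 differed little there, at 113 CPM in WT E18.5 and 102 CPM in WT E14.5 Ttn-high nuclei and at 75.6 and 75.1 CPM in Pax7 positive nuclei.

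Of 6 tested mitosis genes 4 were lower at E18.5, Top2a, Kif15, Knl1 and Ect2, and of 6 replication genes Brip1 and Atad2. The summed level of mitosis genes was 460 CPM in WT E18.5 and 1192 CPM in WT E14.5, and 825 and 1466 CPM over unmarked nuclei, where 0 of 2 tested were lower and Diaph3 was higher. Of replication genes 1 was tested over unmarked nuclei and 0 were called.

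Synaptic genes in committed nuclei were higher at E18.5 for Chrnd, at 78.7 CPM against 12.7 CPM at E14.5, and Dok7, at 92.3 against 44.6 CPM, and lower for Colq, of 10 tested. Over unmarked nuclei 4 of 7 were higher, Chrnd, Dok7, Lrp4 and Col25a1. The fusion genes Mymx, Elmo1 and Kirrel3 were higher and Dysf, Cdh2, Cdh4 and Cdon lower, of 22 tested. Over unmarked nuclei Elmo1 was higher and Neo1 lower of 11, and the other calls were not made. A large part of the WT E18.5 Kirrel3 UMIs came from 1 nucleus, as given above. Mymx was at 65.0 CPM in WT E18.5 and 31.9 CPM in WT E14.5, a ratio of 2.04 whose interval reached below 1 (0.997 to 4.59), and Elmo1 at 1544 and 676 CPM. Cdkn1a, the p21 inhibitor of cyclin-dependent kinases, was at 68.4 CPM in WT E18.5 and 19.1 CPM in WT E14.5, and Btg1 at 192 and 82.8 CPM. Of 3 cycle exit genes tested over unmarked nuclei 0 were called. Mef2c was lower, at 937 CPM against 2081 CPM, and so was Hes6, which promotes differentiation, at 22.2 CPM against 66.9 CPM. Neither was called over unmarked nuclei, where Mef2d was higher and Eya2 lower of 10 myogenic regulators and Maml3 higher of 8 Notch genes. Early sarcomere genes split, with Actc1, Tnni2 and Tnnc2 higher and Myh3, Tnnc1, Myl1, Mybpc1 and Myom3 lower of 34. Over unmarked nuclei Acta1 and Ldb3 were higher and Myl1, Mybpc1 and Myom3 lower of 19. Outside the lists Chrm3, a muscarinic receptor, was at 157 CPM in WT E18.5 and 1380 CPM in WT E14.5, and at 206 and 1674 CPM over unmarked nuclei. Mrc1, Tnxb and F13a1, among the genes highest at E18.5, mark other cell types.

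The 12 WT P5 nuclei held 52074 UMIs, against 584736 in the 76 WT E18.5 nuclei, and their values are the least precise. Of 5484 genes, 444 were higher (8.1%) and 931 lower (17%) in WT P5, with a median of all genes at -0.04, and over unmarked nuclei 115 of 1789 were higher (6.43%) and 373 lower (20.8%). Early sarcomere genes were lower for 17 of 34 and higher for none, with a median of -0.93, and fusion genes lower for 6 of 22. Over unmarked nuclei 9 of 16 and 4 of 11 were lower. The same minimum of UMIs applied to both groups. With more UMIs in total, WT E18.5 let a gene enter the test at a lower CPM than WT P5 did. The choice of tested genes thus favors lower over higher calls in all these counts. Their excess of lower calls is therefore not to be read as a difference of the lists or of all genes. Myl1 was at 57.6 CPM in WT P5 and 561 CPM in WT E18.5, and Col25a1 had 0 UMIs in WT P5 against 419 CPM in WT E18.5. Megf10 was at 3188 CPM in WT P5 and 1452 CPM in WT E18.5, seen in 12 of 12 and 73 of 76 nuclei, and Dll1, a rule gene, at 211 and 78.7 CPM. Ctnna2, highest over WT E18.5 by its interval, was at 2285 CPM in WT P5 and 15.4 CPM in WT E18.5, in 7 of 12 and 5 of 76 nuclei. The markers of 6 other cell types, tenocytes, cartilage, endothelium, macrophages, Schwann cells and neurons, were all at 0 in the P5 committed nuclei. Those of the remaining types were present, mesenchymal at 1056 CPM, smooth muscle and pericyte at 230, and adipocyte and erythroid at 38.4 each. At least 2 UMIs of other-type markers were found in 5 of the 12 nuclei.

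Open chromatin was compared over peaks within 1000 bases of gene starts, as counts per 1000000 ATAC counts of a set of nuclei (ATAC CPM). At the starts of the 205 genes higher than in Pax7 positive nuclei, committed nuclei had 1.30 times the signal (1.25 to 1.34) in KO E18.5, 1.19 (1.14 to 1.24) in WT E14.5, 1.21 (1.17 to 1.25) in WT E18.5 and 1.1 (1.02 to 1.18) in WT P5. At the 395 lower genes the ratio was 0.797, 0.795, 0.869 and 1.01, and at all tested genes 0.981, 0.930, 0.973 and 0.956. Chromatin at starts thus differed in the same direction as RNA in every library but WT P5, where 1 nucleus held 73165 of the 113025 ATAC counts and leaving it out gave 1.72 and 0.891. Taken as counts per nucleus, the KO E18.5 ratio at the higher genes turned to 0.905, against 0.557 at the lower genes. Against Ttn-high nuclei the ratios were 1.23, 1.21, 1.15 and 1.26 at the 524 higher genes, 0.628, 0.795, 0.686 and 0.621 at the 355 lower genes and 1.02, 1.05, 1.00 and 0.980 at all tested genes.

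At single genes the chromatin counts were small. The Chrna1 start, whose promoter is printed above, had 91.9 ATAC CPM in KO E18.5, 67.7 in WT E14.5, 39.0 in WT E18.5 and 88.5 in WT P5 committed nuclei, against 31.4, 29.4, 21.0 and 15.7 in Pax7 positive nuclei. The Notch3 start had 19.9, 47.1, 12 and 8.85 ATAC CPM, against 80.6, 87.4, 55.4 and 55.1. At Mymx 17, 17, 32 and 4 counts gave 42.2, 50, 48.0 and 35.4 ATAC CPM, against 20.1, 11.6, 11.1 and 5.24. These 3 starts followed the RNA in all 4 libraries. Rb1 did not, with ratios of 1.02, 0.733, 0.873 and 1.69, nor did Megf10, with 0.509, 0.847, 0.343 and 1.32, although the RNA of both was higher in committed nuclei of every library. Myog, a rule gene, had 67.1, 35.3, 49.5 and 70.8 ATAC CPM at its start in committed nuclei, against 69.8, 57.3, 21.0 and 27.5 in Pax7 positive nuclei, with no common direction.

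Peaks with at least 20 counts in committed nuclei were set against both other sets. Higher than in both were 317 of 5070 in KO E18.5 (6.25%) and 130 of 3253 in WT E14.5 (4%). In WT E18.5 440 of 8630 were (5.1%) and in WT P5 23 of 127 (18.1%). The counts had to come from committed nuclei alone, which favors peaks high in them, so the filter raises these shares. In WT P5 1 nucleus held 73165 of the 113025 ATAC counts of committed nuclei. Over unmarked nuclei, with fewer counts, set against unmarked Pax7 positive and Ttn-high nuclei, 56, 9, 68 and 0 peaks were higher than in both. A peak at chr11:84570363-84571283 in KO E18.5, 45162 bases from the start of Lhx1os, was among the 10 highest with 22 committed counts, and the overlapping WT E18.5 peak, called separately at chr11:84570366-84571152, was among the 10 highest there with 33. A WT E18.5 peak 91850 bases from the start of Elmo1, at chr13:20182013-20182880, had 24 committed, 3 Pax7 positive and 61 Ttn-high counts, ratios of 20.6 and 9.03 in ATAC CPM.

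**Figure D5:**
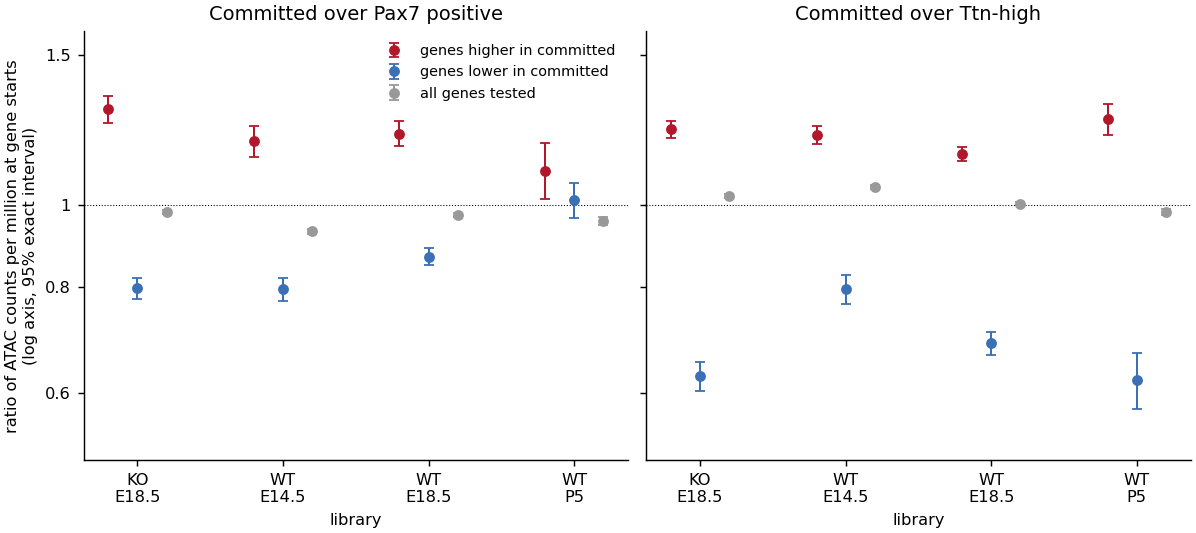
Ratio of ATAC CPM at gene starts, committed over Pax7 positive and over Ttn-high nuclei, for genes whose RNA was higher, lower or merely tested, in each library with exact 95% intervals. Over Pax7 positive nuclei the higher genes lie at 1.1 to 1.30, the lower genes at 0.795 to 1.01 and all tested genes at 0.930 to 0.981.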

How the data were processed

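RNA and open chromatin were measured in nuclei of 5 pooled libraries. Per the submitters' processing notes and the study's methods, Cell Ranger ARC 2.0.0 aligned the reads to mm10 (GRCm38), with intronic reads counted and peaks called in each library on its own. The deposited tables hold raw counts per nucleus, UMI counts for genes and cut counts for peaks, and the authors applied no normalization to them. The deposited KO E18.5 table holds fewer barcodes than the number of nuclei the study gives for that library. The libraries held 22301 barcodes, of which 21209 had more than 400 and fewer than 25000 gene UMIs, and these summed to 29228317 UMIs in KO E18.5, 22333340 in WT E14.5, 29865905 in WT E18.5 and 22351440 in WT P5, the 4 libraries used. Library pairs shared 17 to 47 barcode sequences.

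The members, gene lists and comparisons were chosen with earlier results of these data known. Groups came from the sample labels. Counts were summed over the nuclei of a state in a library and divided by the UMIs of the same nuclei (CPM). Levels have exact Poisson intervals, ratios exact conditional binomial intervals and shares exact (Clopper-Pearson) intervals, all at 95%. Reads copied by PCR were collapsed by UMIs in RNA only, and all intervals cover counting error only. No count model was run, since each group is 1 library. A count of 0 was set to 3 counts for a ratio. Within libraries a call needed the same direction in all 4, or in the 3 without WT P5 where the text says so. The gene lists within libraries and the gene sets for promoters and open chromatin used these 3 libraries. Every gene of the 13 lists could be named, and outside them the 10 highest and 10 lowest genes of each comparison without predicted genes, ranked within libraries by the smallest ratio and between libraries by the interval bound nearest to 1. Peaks named are those at starts of list genes and the 10 highest of each library.

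Doublets were not removed, and calls by Scrublet (in scanpy 1.11.5) were an alternative. Other alternatives were a rule of 3 of 4 genes, Ttn limits of 0.5% and 2%, UMI minimums of 10, 50 and none, TMM and median-of-ratios factors (edgeR 4.0.16 in R 4.3.3), thinning to 1000 or 3000 UMIs a nucleus, mitochondrial (10%) and ATAC (70000 counts) limits, leaving out each library, and leaving out nuclei with 2 or more UMIs of 63 markers of 10 other types. Scripts used Python 3.11.15, numpy 2.4.6, scipy 1.17.1 and pandas 2.3.3 and were tested on simulated data. Gene starts came from the GENCODE annotation of GRCm38 and promoter sequences from RefSeq. The study's clusters and fold changes were not used.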

Additional observations from a re-analysis of the deposited data

How the results depend on the processing

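No paired analysis was possible because each group is 1 library and the labels carry no replicate numbers. The share of committed nuclei followed the rule: in KO E18.5 it was 0.898% with 3 of 4 genes, 2.04% with Ttn under 0.5%, 6.07% with Ttn under 2%, 11.3% over nuclei without other-type RNA, 0.312% thinned to 1000 UMIs and 1.27% thinned to 3000. In WT E14.5 the values were 0.228%, 0.476%, 3.54%, 2.40% and, thinned to 1000, 0.0639%. In WT E18.5 they were 0.537%, 1.03%, 3.43%, 7.14%, 0.0708% and, thinned to 3000, 0.965%, and in WT P5 0.107% with 3 of 4 genes, 3.76% without other-type RNA and 0.112% thinned to 1000.

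Counts of genes called moved with nuclei and UMIs. Over Pax7 positive nuclei the 89 higher genes became 37 without other-type RNA, 48 with at least 50 UMIs, 553 with no minimum, 205 without WT P5 and 3 thinned to 1000, and the 142 lower genes became 48 with 3 of 4 genes, 264 without Scrublet doublets, 54 without other-type RNA, 89 with 50 UMIs, 234 without WT E14.5, 395 without WT P5 and 3 thinned. Over Ttn-high nuclei the 418 higher genes became 971 with 3 of 4 genes, 707 with Ttn under 0.5%, 103 without other-type RNA, 113 with TMM, 116 with median-of-ratios factors, 681 with 10 UMIs, 257 with 50, 4110 with no minimum, 794 without KO E18.5, 733 without WT E14.5, 708 without WT E18.5 and 3444 thinned. The 155 lower genes became 76 with 3 of 4 genes, 41 with Ttn under 2%, 362 with TMM, 352 with median-of-ratios factors, 247 without WT E14.5, 355 without WT P5 and 13 thinned.

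For KO over WT E18.5 the 506 higher genes became 325 with 3 of 4 genes, 301 without Scrublet doublets, 231 without other-type RNA, 946 with 10 UMIs, 187 with 50, 1447 with no minimum and 8 thinned, and the 271 lower genes became 172, 177, 93, 655, 67, 3797 and 0, and 453 with Ttn under 2%. For WT E18.5 over WT E14.5 the 611 higher genes became 393 with 3 of 4 genes, 1163 with Ttn under 2%, 224 without other-type RNA, 1168 with 10 UMIs, 197 with 50, 1736 with no minimum and 3 thinned, and the 316 lower genes became 129, 590, 176, 656, 123, 3563 and 0, and 197 with Ttn under 0.5%. For WT P5 over WT E18.5 the 444 higher genes became 282 with 3 of 4 genes, 260 with Ttn under 0.5%, 199 without Scrublet doublets, 115 without other-type RNA, 243 with TMM, 248 with median-of-ratios factors, 1615 with 10 UMIs, 148 with 50, 8412 with no minimum and 3 thinned, and the 931 lower genes became 378 with 3 of 4 genes, 1446 with Ttn under 2%, 603 without Scrublet doublets, 373 without other-type RNA, 481 with 50 UMIs and 2 thinned. With no minimum, genes at 0 are set to the floor of 3 counts, which inflates these counts by construction. The cause of the other moves was not tested.

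The late over early ratio was 0.574 for mitosis, 0.396 for replication and 1.48 for early sarcomere genes, and 0.279, 0.262 and 1.28 over nuclei with 2000 to 12000 UMIs. These pool the libraries. Over all committed nuclei, mitosis genes ran the other way within KO E18.5, replication genes within KO E18.5 and WT E18.5, and early sarcomere genes within WT E18.5 and WT P5. Chromatin at starts of higher genes over Pax7 positive nuclei was 1.41 with 3 of 4 genes and 0.905 per nucleus, a reversal, in KO E18.5, 1.24 without other-type RNA in WT E14.5, 1.12 per nucleus in WT E18.5, and in WT P5 1.72 with the ATAC limit, 1.5 both with 3 of 4 genes and without other-type RNA, and 1.2 per nucleus. At lower genes it was 0.744 and 0.557 per nucleus in KO E18.5, 0.755 and, without other-type RNA, 0.717 in WT E14.5, 0.821 without other-type RNA and 0.805 per nucleus in WT E18.5, and 0.891, 0.863, 0.846 and 1.11 in WT P5. Peaks higher than both sets numbered 39 with 3 of 4 genes, 56 without other-type RNA and 6 with 50 counts in KO E18.5, 1, 9 and 1 in WT E14.5, 117, 68 and 10 in WT E18.5 and 0 in each in WT P5. Single genes that reversed were Mybph over Ttn-high nuclei (log2 difference 0.027) and Mybpc1 in WT E18.5 over WT E14.5 (0.088) with Ttn under 2%, Top2a in KO over WT E18.5 with 3 of 4 genes (-0.71), and Dpp6 in WT P5 over WT E18.5 thinned to 1000 UMIs (-0.023).

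The 12 WT P5 nuclei, the 1 library per group and the low counts of Mymx, Dll1 and the receptor genes limit what can be seen, and a gene that missed a call is not shown to be alike in both groups.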
